A study of Mus musculus with 6 samples.

Results

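GITR, encoded by Tnfrsf18, is a costimulatory receptor of the tumor necrosis factor (TNF) receptor family, and it was studied here together with 9 other receptors of that family. The receptors were Tnfrsf18, Tnfrsf4 (OX40), Tnfrsf9 (4-1BB), Tnfrsf1a (TNFR1), Tnfrsf1b (TNFR2), Tnfrsf25 (DR3), Tnfrsf14 (HVEM), Cd27, Ltbr (the lymphotoxin β receptor) and Tnfrsf8 (CD30). They were taken by gene name, and all 10 were found among the 53278 genes of the table. Type 2 innate lymphoid cells (ILC2s) were sorted from visceral adipose tissue of 8-week-old C57BL/6 mice that had received 3 intraperitoneal injections of 1 µg recombinant IL-33. Per the study's methods the sort took lineage-negative cells that carried CD45, the IL-33 receptor ST2 and CD117, with CD3ε among the lineage markers. Both groups were cultured with 10 ng/mL IL-2 and 10 ng/mL IL-7, in 1 group with 5 µg/mL of DTA-1, an agonistic antibody against GITR, and in the other with its isotype control. The titles of the control samples say isotype, whereas their descriptions read PBS-GITR. They are called isotype control here, after the titles and the study's methods. The sample labels give 48 h of culture, whereas the results text of the study gives a shorter time. Each group had 3 libraries made from 10 ng of total RNA, and their totals ranged from 30569351 to 35131329 expected counts. Nothing in the labels says that these libraries came from separate animals or cultures, so the p-values measure only the spread between libraries, which may be technical.

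TNF family receptors are bound by trimeric ligands and have no enzyme activity of their own. Their cytoplasmic tails recruit TRAF adaptors, and TNFR1 and DR3 also carry a death domain that binds TRADD. Several of them lead to activation of NF-κB, through a canonical arm with IκBα and a non-canonical arm in which TRAF3 and the cIAP ubiquitin ligases hold back the kinase NIK. On T cells GITR, OX40, 4-1BB and CD27 are costimulatory, and ILC2s are known to be able to carry GITR and DR3.

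Among the 6 libraries, that labelled DTA-1 replicate 1 stood apart from the rest of its group. Its root-mean-square log2 difference from the isotype control libraries was 0.181 to 0.188, against 0.247 to 0.248 from the other DTA-1 libraries, while isotype control libraries differed from each other by 0.185 to 0.21. An antibody leaves no transcript of its own, so the files hold no direct check of whether this library was treated as labelled. That was not tested, and every DTA-1 mean and fold change over all 6 libraries takes its label as given. Results are therefore given with and without this library. Because it lay closest to isotype control, leaving it out moves the groups apart by construction, and calls made without it are values and not a replicated result. The gene lists below were drawn up with earlier results of these data known, so counts of their members only describe the lists. All 12 listed ILC2 markers were counted in every library, given as normalized counts (CPM, counts scaled to library size by TMM). Gata3 had 1690 to 1710 CPM in isotype control and 1520 to 1680 with DTA-1, and Thy1 had only 9.15 to 11.7 CPM. Of the 12, Il2ra and Il5 were higher in every DTA-1 library than in any control, and Gata3 was lower. The shares over all genes tested were 5.26% higher and 6.03% lower. None of the 12 was called with 6 libraries. Without DTA-1 replicate 1, Il5 and Areg were called higher and Icos lower, against 0.583% and 0.161% of all genes. Markers of other cells were also counted. The 8 T cell markers summed to 42.8 to 56.5 CPM in isotype control and 48.3 to 53.0 with DTA-1, nearly all of it Cd3g, with Cd8a at 0 in every library. The 8 macrophage markers summed to 6.44 to 12.2 and 8.66 to 11.8 CPM, with C1qb at 0, and the 8 fibroblast markers to 2.82 to 9.38 and 0.0 to 3.98 CPM, with Dpt at 0 in every library. All 5 fibroblast markers that were tested had lower means with DTA-1. For 3 of them every DTA-1 library was below every control, against 6.03% of all genes tested. Pdgfra had 1.92, 0.399 and 0.708 CPM in isotype control and 0 in each DTA-1 library, Fbn1 had 0.565, 0.627 and 0.991 and then 0 in each, and Col1a1 had 1.69, 1.6 and 1.93 and then 0.0, 0.288 and 0.094. These 3 were called lower by DESeq2 with 6 libraries (adjusted p = 0.00283, 0.00748 and 0.00423), against 0.099% of genes called in either direction. They were also called lower by edgeR without DTA-1 replicate 1 (adjusted p = 0.0481, 0.0359 and 0.0325), against 0.161% of all genes. In DTA-1 replicate 1 the whole fibroblast list was at 0, and in DTA-1 replicate 2 only Col1a1 was counted (0.288 CPM). In DTA-1 replicate 3 the list summed to 3.98 CPM, within the range of the isotype control libraries. The other tested members, Col1a2 and Col3a1, overlapped between the groups. Col3a1 had 2.88 CPM in DTA-1 replicate 3 and 0.0855 to 2.89 CPM in isotype control. Whether these markers tell how a library was treated was not tested. The 5 endothelial markers summed to 18.4 to 24.4 CPM in isotype control and 10.6 to 18.3 with DTA-1, nearly all of it Pecam1, with Cdh5 at 0. Kdr, Tek and Vwf were counted only in DTA-1 libraries, at 0.596 CPM or less, so the sum describes Pecam1 and not the list. Pecam1 was lower in every DTA-1 library than in any control, against 6.03% of all genes tested. Without DTA-1 replicate 1 it was called lower (log2 fold change -1.03, edgeR adjusted p = 0.0132), against 0.161% of all genes. The part of the fibroblast markers and of Pecam1 in the differences below was not tested.

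The receptor genes lie in 2 clusters of the mouse genome (mm10). Of the 10, 7 were on chromosome 4 within 10.8 Mb, between positions 145213463 and 156028895, and 3 (Cd27, Ltbr and Tnfrsf1a) were on chromosome 6 within 0.13 Mb. Tnfrsf4 (chr4:156013843-156016612) and Tnfrsf18 (chr4:156026164-156028895) are neighbours on the plus strand, 9551 bases apart. Stretches from the 250 bases upstream of their RefSeq start sites (GRCm38.p6, plus strand) are shown because one of these neighbouring genes had higher counts with DTA-1 and the other did not. The bases were limited to those that overlap no annotated UTR.
Tnfrsf18, chr4:156026072-156026163: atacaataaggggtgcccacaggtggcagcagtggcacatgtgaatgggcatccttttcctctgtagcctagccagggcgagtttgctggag
Tnfrsf4, chr4:156013611-156013694: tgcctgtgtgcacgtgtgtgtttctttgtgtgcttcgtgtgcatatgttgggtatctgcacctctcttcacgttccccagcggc

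Start-site windows of 300 bases from RefSeq were present for all 10 receptors, 12 windows in all, since Tnfrsf9 and Tnfrsf25 each had 2. The NF-κB consensus, searched on both strands, was found in 2 of the 12 windows, against 4.51% of all 32851 windows of this length. One was the downstream start of Tnfrsf9, where the match begins 43 bases before the start and overlapping letters match on both strands. The other was Tnfrsf8 (minus strand), with the match beginning 168 bases before its start. Capitals mark the matched letters, and both are shown because these were the only receptor windows with a match. A match is a description of the letters and does not show binding.
Tnfrsf9, chr4:150927947-150927976, plus strand: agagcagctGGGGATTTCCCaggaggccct
Tnfrsf8, chr4:145315165-145315414, minus strand: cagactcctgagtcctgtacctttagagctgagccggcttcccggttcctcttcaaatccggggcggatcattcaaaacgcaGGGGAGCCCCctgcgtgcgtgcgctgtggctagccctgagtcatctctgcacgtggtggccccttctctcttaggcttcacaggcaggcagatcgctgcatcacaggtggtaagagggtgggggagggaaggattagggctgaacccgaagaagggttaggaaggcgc

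Tnfrsf18 was by far the most abundant of the 10 receptor transcripts. To compare genes, CPM was divided by the length of each gene's merged exons. In isotype control Tnfrsf18 had 436 to 489 CPM per kb, and it made up 68.4% to 70.8% of the summed level of the 10 receptors in the isotype control libraries and 63.5% to 69.6% in the DTA-1 libraries. By mean CPM it ranked 154th of the 14361 genes tested. Tnfrsf9 came next with 65.6 to 71.1 CPM per kb in isotype control, which is 14.6% of the Tnfrsf18 mean. It was followed by Tnfrsf25 with 57.8 to 58.4, Tnfrsf1b with 41.1 to 42.0, Tnfrsf4 with 16.4 to 22.3, Tnfrsf8 with 10.1 to 11.5 and Cd27 with 2.96 to 4.0 CPM per kb. Each of these 7 receptors was apart from its neighbours in the order in both groups of libraries. The 3 lowest, Ltbr (0.228 to 0.702), Tnfrsf1a (0.297 to 0.6) and Tnfrsf14 (0.218 to 0.373 CPM per kb), overlapped and could not be ordered. With the length of the longest transcript in place of merged exons, only Ltbr and Tnfrsf1a changed places.

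**Figure D1:**
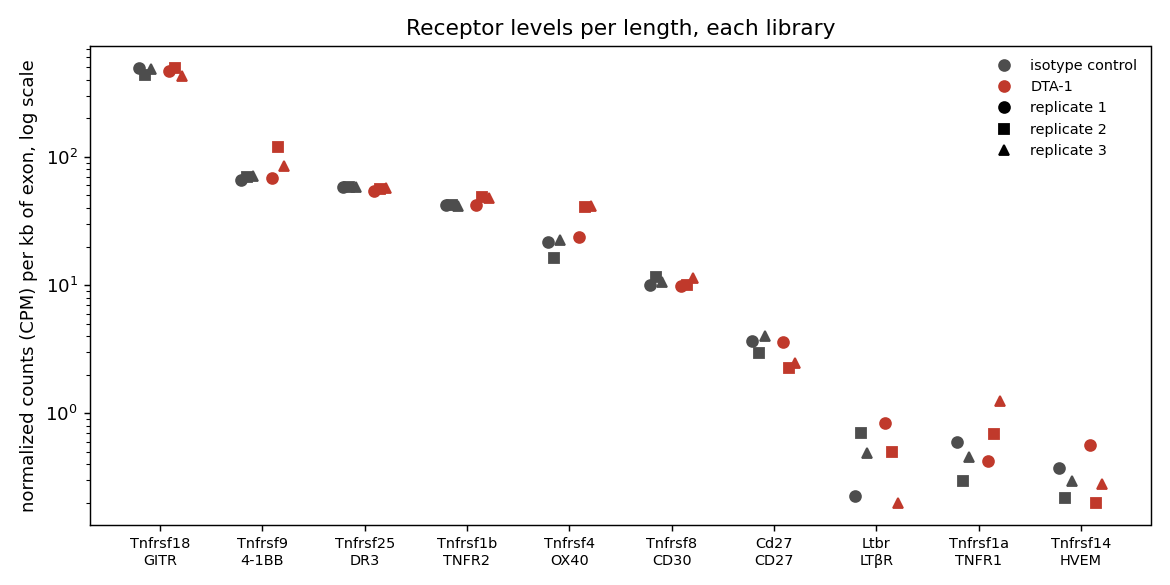
Level of each receptor transcript per length, in CPM per kb of exon on a log axis, with 1 point for each library (gray, isotype control; red, DTA-1; the shape gives the replicate). Tnfrsf18 lies between 431 and 496 in all 6 libraries, and Ltbr, Tnfrsf1a and Tnfrsf14 overlap at the bottom.

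No receptor met the criterion for differential expression, an adjusted p under 0.05 with at least 1.5-fold change, when edgeR's quasi-likelihood test was applied to all 6 libraries. None of the 14361 genes that passed the filter on low counts met it (0.0%), and the smallest adjusted p was 0.4522, while 1036 genes (7.21%) had an unadjusted p under 0.05. By DESeq2's Wald test 20 of 20196 genes were called (0.099%), 1 of them a receptor, Tnfrsf4. All 10 receptors passed the filter on low counts. The median log2 fold change of the 10 was 0.13, against -0.01 over all genes tested. In these bulk samples, a change in the number of cells of a type and a change in RNA per cell cannot be told apart.

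Transcripts of GITR itself, the receptor that DTA-1 engages, did not differ detectably between the groups. Tnfrsf18 had 746, 665 and 740 CPM in isotype control and 712, 755 and 657 CPM with DTA-1. The groups overlapped, and the library with the most and the library with the least were both treated with DTA-1. Means were 717 ± 45.0 and 708 ± 49.4 CPM (SD, n = 3 each). The log2 fold change was -0.02 (SE 0.07, 95% confidence interval -0.18 to 0.14, edgeR adjusted p = 0.971), an interval that leaves out a 1.5-fold change either way, and it was again -0.02 without DTA-1 replicate 1. The antisense gene Gm16008 covers all 2732 bases of Tnfrsf18, and the counts of both genes were fractional, so reads may have been divided between them. Gm16008 had only 172.913 to 232.537 expected counts against 20950.0 to 26413.4 for Tnfrsf18. Whether the counting used strand is not given in the sources used here.

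OX40 was the receptor with the clearest difference. Tnfrsf4 had 29.8, 22.4 and 30.5 CPM in isotype control and 32.3, 55.1 and 56.7 CPM with DTA-1. The groups did not overlap, but DTA-1 replicate 1 was only just above the highest isotype control library. Means were 27.6 ± 4.47 and 48.0 ± 13.7 CPM (SD, n = 3 each). The log2 fold change was 0.80 (SE 0.20, 95% confidence interval 0.37 to 1.24), a 1.74-fold change, with an unadjusted p of 0.00193 and an adjusted p of 0.626 by edgeR. Tnfrsf4 was the only receptor among the 337 genes (2.35%) with an unadjusted p under 0.05 and at least 1.5-fold change. DESeq2's Wald test gave an adjusted p of 0.0189. When DTA-1 replicate 1 was left out, Tnfrsf4 was at a log2 fold change of 1.02 (SE 0.13) with an edgeR adjusted p of 0.00573, and over all alternatives the adjusted p ranged from 0.00573 to 0.999.

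The genes on either side of Tnfrsf4 and Tnfrsf18 had smaller differences than Tnfrsf4. Sdf4, which encodes a calcium-binding protein of the Golgi and ends 232 bases before Tnfrsf4, had 731 to 785 CPM in isotype control and 750 to 874 with DTA-1. Its log2 fold change was 0.09 (SE 0.07), B3galt6 upstream had -0.08 (SE 0.17), and 9430015G10Rik beyond Tnfrsf18 had -0.21 (SE 0.15), none of them with an adjusted p under 0.05 by edgeR. Ttll10, between Tnfrsf18 and 9430015G10Rik, had at most 0.255 CPM. Relative to Tnfrsf18 in the same library and per length, Tnfrsf4 was at 4.46%, 3.76% and 4.6% in isotype control and at 5.06%, 8.15% and 9.65% with DTA-1, higher in all 3 DTA-1 libraries than in any control.

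4-1BB had a higher mean with DTA-1, set by replicates 2 and 3. Tnfrsf9 had 179, 189 and 193 CPM in isotype control and 186, 327 and 232 CPM with DTA-1. DTA-1 replicate 1 lay among the controls, replicate 3 somewhat above them and replicate 2 far above. Means were 187 ± 7.59 and 248 ± 72.1 CPM (SD, n = 3 each). The log2 fold change was 0.41 (SE 0.16, 95% confidence interval 0.06 to 0.76, unadjusted p = 0.0249, edgeR adjusted p = 0.655). It was 0.58 (SE 0.12, adjusted p = 0.0481) without DTA-1 replicate 1, just short of 1.5-fold, and 0.17 without DTA-1 replicate 2. Per length Tnfrsf9 was at 13.4% to 15.9% of Tnfrsf18 in isotype control and at 14.7%, 24.3% and 19.7% with DTA-1. Camta1, on the opposite strand, overlaps 28781 bases of the Tnfrsf9 gene, and had 8.15 to 10.4 CPM in isotype control and 8.03 to 10.4 with DTA-1.

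**Figure D2:**
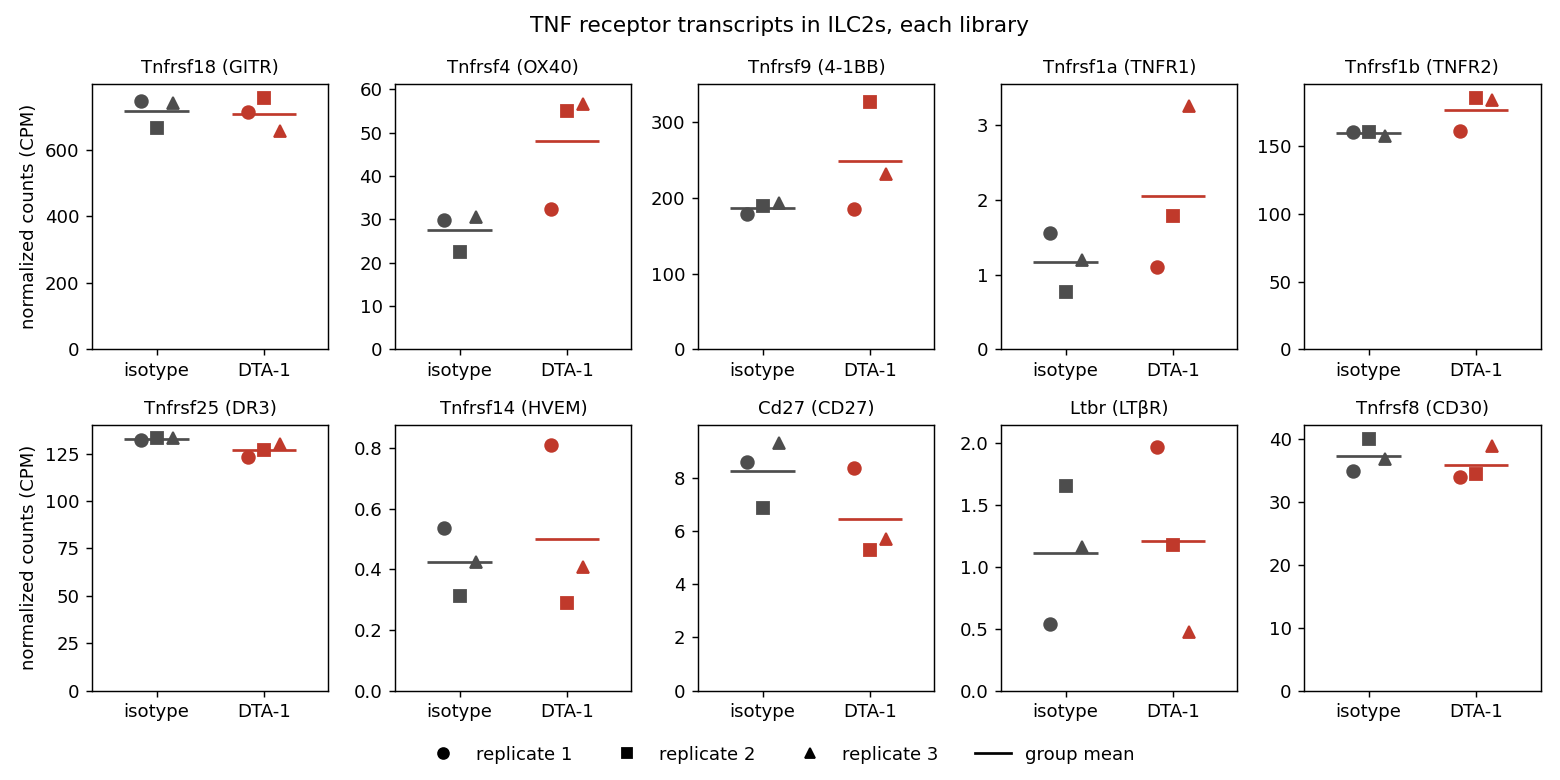
Normalized counts (CPM, linear axes from 0) of each receptor in every library, with the group mean as a line (gray, isotype control; red, DTA-1; the shape gives the replicate). For Tnfrsf4 DTA-1 replicates 2 and 3 lie at 55.1 and 56.7 CPM and replicate 1 at 32.3, close to the controls, whereas the Tnfrsf18 groups overlap.

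The remaining abundant receptors had nearly the same level in both groups. TNFR2, the TNF receptor without a death domain, had 160, 160 and 157 CPM of Tnfrsf1b in isotype control and 161, 185 and 184 CPM with DTA-1. These groups did not overlap, though by only about 1 CPM at the nearest libraries, and the log2 fold change was 0.15 (SE 0.07, edgeR adjusted p = 0.692). DR3, the receptor for TL1A, had 132, 133 and 133 CPM of Tnfrsf25 in isotype control and 123, 127 and 130 CPM with DTA-1. All DTA-1 libraries were lower, by a log2 fold change of -0.06 (SE 0.06, 95% confidence interval -0.20 to 0.07, adjusted p = 0.859). Tnfrsf8, encoding CD30, had 34.9, 39.9 and 36.8 CPM in isotype control and 34.0, 34.4 and 38.9 CPM with DTA-1, which overlapped. Tnfrsf4 and Tnfrsf1b were thus the 2 receptors with every DTA-1 library above every control, against 5.26% of all genes tested, and Tnfrsf25 was the 1 receptor with every DTA-1 library below, against 6.03%. These counts were the same with TMM scaling, DESeq2's size factors and total counts.

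CD27, a costimulatory receptor of T cells bound by CD70, was counted at a low level. Cd27 had 8.59, 6.89 and 9.32 CPM in isotype control and 8.37, 5.28 and 5.71 CPM with DTA-1. The log2 fold change was -0.36 (SE 0.22, edgeR adjusted p = 0.757) and -0.59 (SE 0.21, adjusted p = 0.246) without DTA-1 replicate 1, which lay among the controls. Vamp1 on the opposite strand overlaps all 4389 bases of Cd27 and had a similar count (7.32 to 11.6 CPM in isotype control, 6.43 to 9.24 with DTA-1), so reads of the pair may be mixed and the value of Cd27 is uncertain. The T cell markers that were tested, 5 of 8, all had lower fitted levels with DTA-1. Cd3g, which makes up most of their sum, was at a log2 fold change of -0.02 (SE 0.12), Cd3e at -0.03 (SE 0.29) and Cd4 at -0.01 (SE 0.88). Cd3d was at -0.51 (SE 0.43) and Foxp3 at -0.56 (SE 0.33). Every DTA-1 library of Foxp3 (1.18 to 2.32 CPM) was below every control (2.54 to 2.94 CPM), against 6.03% of all genes tested. None of the 5 markers was called, and their part in the value of Cd27 was not tested.

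The 3 receptors that are broadly expressed on other cells of the tissue were near the limit of what these libraries can compare. Tnfrsf1a, the death domain receptor for TNF, had 55.0, 27.0 and 42.0 expected counts in isotype control and 34.0, 56.0 and 104.0 with DTA-1. Its log2 fold change was 0.81 (SE 0.46, 95% confidence interval -0.20 to 1.82, edgeR adjusted p = 0.738), and it was 0.30 without DTA-1 replicate 3 and 1.11 without DTA-1 replicate 1. Ltbr, which is found mainly on stromal and myeloid cells, had 19.0, 58.0 and 41.0 expected counts in isotype control and 61, 37 and 15 with DTA-1. Tnfrsf14, whose product HVEM binds LIGHT and BTLA, had 19, 11 and 15 expected counts and then 25, 9 and 13. For Ltbr and Tnfrsf14 the intervals of the log2 fold change were -1.15 to 1.38 and -1.06 to 1.53, so a 2-fold change either way was not excluded by these libraries. The fibroblast and macrophage markers given above were present at similarly low levels, and their part in these 3 values was not tested.

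**Figure D3:**
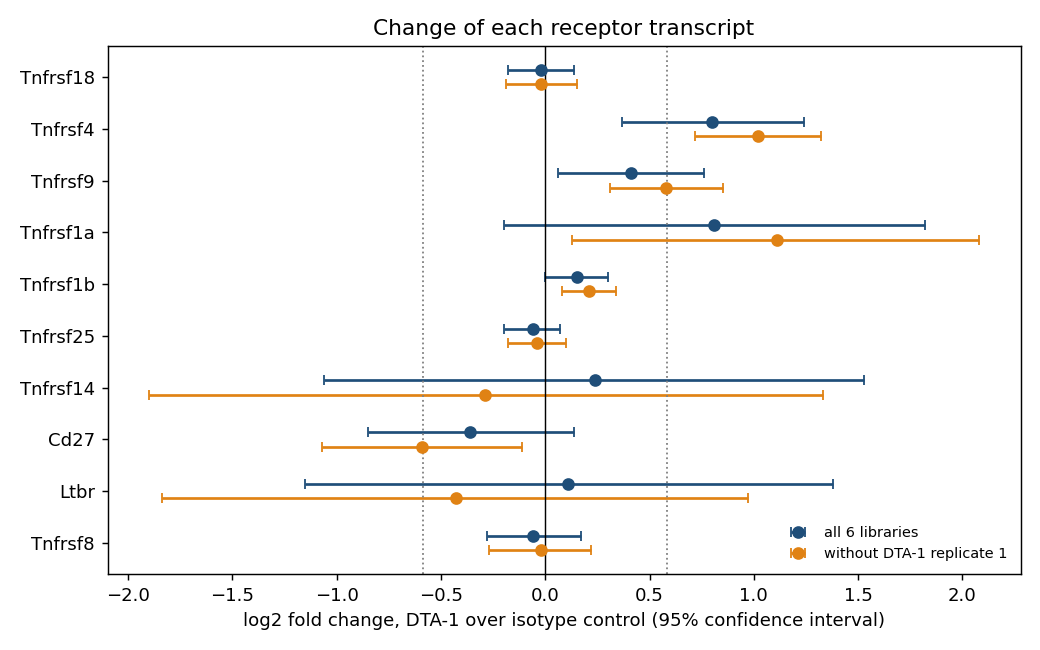
Log2 fold change of each receptor, DTA-1 over isotype control, with its 95% confidence interval from edgeR, for all 6 libraries (blue) and without DTA-1 replicate 1 (orange). Dotted lines mark 1.5-fold. Tnfrsf4 lies at 0.80 and 1.02, Tnfrsf18 at -0.02 in both, and the intervals of Tnfrsf1a, Tnfrsf14 and Ltbr are the widest.

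Without DTA-1 replicate 1, 87 of 14911 genes were called higher (0.583%) and 24 lower (0.161%), and of the receptors Tnfrsf4 was called higher and none lower. At an adjusted p under 0.05 with no limit on fold change, 202 genes were higher (1.35%), among them Tnfrsf4 and Tnfrsf9. The median log2 fold change of the 10 receptors was then -0.02, equal to that of all genes tested. Tnfrsf1a had an adjusted p of 0.291 without this library, and Tnfrsf1b at 0.21 (SE 0.06), with an adjusted p of 0.133.

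The ligands of these receptors were counted in the same cells, and those of GITR, DR3 and CD27 were almost absent. Tnfsf18, the GITR ligand, had 0.0, 2.0 and 10.0 expected counts in isotype control and 6.0, 0.0 and 0.0 with DTA-1. Tnfsf15, encoding TL1A, had at most 4.0 expected counts and Cd70 at most 7.0 in any library, and these 3 ligands were not tested. A gene listed at 0 is not shown to be absent. At this depth its mean level could be as high as about 3 counts, or 0.0854 to 0.0981 CPM. By contrast the OX40 ligand was abundant: Tnfsf4 had 79.8, 71.2 and 65.3 CPM in isotype control and 64.0, 106 and 96.7 CPM with DTA-1. Its log2 fold change was 0.30 (SE 0.16, edgeR adjusted p = 0.73) and 0.49 (SE 0.10, adjusted p = 0.0393, short of 1.5-fold) without DTA-1 replicate 1. Per length it was above its receptor in isotype control, at a mean of 39.1 CPM per kb against 20.2 for Tnfrsf4.

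The lymphotoxins and TNF were called higher when DTA-1 replicate 1 was left out, while the 4-1BB ligand and LIGHT had nearly equal means. Ltb had 166, 125 and 142 CPM in isotype control and 142, 514 and 491 CPM with DTA-1, and Lta had 53.6, 38.0 and 44.2 and then 41.0, 169 and 147. In both, DTA-1 replicate 1 lay among the controls and the other DTA-1 libraries were far above them. With all libraries neither was called (log2 fold change 1.40, SE 0.53, and 1.39, SE 0.55; edgeR adjusted p = 0.681 and 0.692), and without DTA-1 replicate 1 both were at 1.80 with adjusted p-values of 5.35e-05 and 0.000115. Tnf had 9.89, 6.67 and 7.34 CPM in isotype control and 10.1, 19.8 and 16.2 CPM with DTA-1, a log2 fold change of 0.95 (SE 0.24, adjusted p = 0.626) that was 1.18 with an adjusted p of 0.0187 without DTA-1 replicate 1. Ltb, at a mean of 95.3 CPM per kb in isotype control, exceeded its receptor Ltbr at 0.474. Tnfsf9, the 4-1BB ligand, had a log2 fold change of -0.01 (SE 0.11), Tnfsf14, encoding LIGHT, of -0.06 (SE 0.08), and Tnfsf8, the CD30 ligand, of 0.48 (SE 0.21, edgeR adjusted p = 0.677). Of the 12 genes tested in the list of ligands, 2 (Tnfsf8 and Tnf) had every DTA-1 library above every control, against 5.26% of all genes tested. For 1 (Tnfsf11) every DTA-1 library was below, against 6.03%. Of the 18 genes in the list of ligands 12 were tested and none was called with 6 libraries, and without DTA-1 replicate 1 Tnf, Lta and Ltb were called higher of 13 tested and none lower, against 0.583% and 0.161% of all genes. The median log2 fold change of the list was 0.14 and then 0.03.

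**Figure D4:**
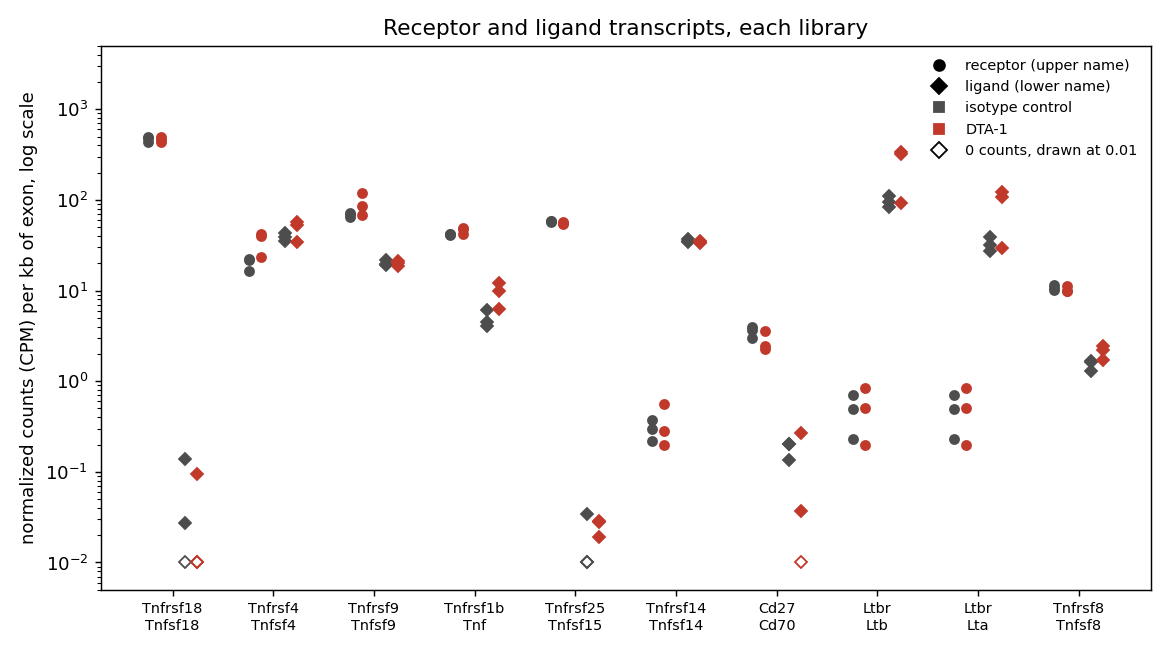
Receptor (circles) and ligand (diamonds) transcripts of 10 pairs, in CPM per kb of exon on a log axis, with 1 point for each library (gray, isotype control; red, DTA-1). Open symbols at the bottom are libraries with 0 counts, and Tnfrsf1a is not drawn. Tnfsf18, Tnfsf15 and Cd70 lie far below their receptors, and Ltb and Lta far above Ltbr.

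Of the adaptors that TNF receptors share, several had higher means in DTA-1 replicates 2 and 3. The list held 19 genes, all tested, and none was called with 6 libraries. Traf1, a TRAF adaptor that is itself a target of NF-κB, had 168, 177 and 197 CPM in isotype control and 185, 287 and 272 CPM with DTA-1. Birc3, encoding the ubiquitin ligase cIAP2, had 80.6, 80.1 and 86.2 and then 82.1, 159 and 164. Traf3, the negative regulator of the non-canonical arm, had 47.3, 46.5 and 43.1 and then 46.4, 69.9 and 64.1. For all 3, DTA-1 replicate 1 lay among the controls. Without it Traf1 and Birc3 were called higher (log2 fold change 0.63 and 0.97, edgeR adjusted p = 0.00346 and 0.000115), Traf3 (0.55, adjusted p = 0.0154) and Traf2 fell short of 1.5-fold, and none was called lower. In that fit 0.583% of all genes were called higher, and 1.35% at any fold. The median of the list was 0.11 with 6 libraries and 0.06 without DTA-1 replicate 1. Tradd, the adaptor of TNFR1 and DR3, had 57.8 to 72.3 CPM in isotype control and 57.3 to 61.5 with DTA-1.

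Most of the listed NF-κB target genes were called higher when DTA-1 replicate 1 was left out, and none with all 6 libraries. The list held 10 genes, 2 of which, Traf1 and Birc3, are also in the list of adaptors. It was drawn up with earlier results of these data known, so its counts are not an independent result. Tnip1, an inhibitor of NF-κB that binds A20, had 93.5, 79.1 and 80.6 CPM in isotype control and 88.2, 137 and 131 CPM with DTA-1. Relb, a subunit of the non-canonical arm, had 43.5, 39.9 and 35.1 and then 39.3, 85.1 and 85.5. In both genes DTA-1 replicate 1 was among the controls. With 6 libraries none of the 10 was called, 9 had an unadjusted p under 0.05, against 7.21% of all genes tested, and the median log2 fold change was 0.59. None of the 10 had every DTA-1 library above every control, against 5.26% of all genes tested. Icam1 in DTA-1 replicate 1 (58.5 CPM) was below every control (63.6 to 70.4 CPM). Leaving out DTA-1 replicate 1 moves the groups apart by construction. In that fit the median was 0.83, and 9 of the 10 were called higher, against 0.583% of all genes. The exception was Bcl3 (log2 fold change 0.22, edgeR adjusted p = 0.338), named after its value was seen.

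Other members of the TNF receptor family gave no call. Of 18 listed, 13 were tested and 4 (Tnfrsf17, Tnfrsf19, Ngfr and Edar) had 0 counts in every library. None was called with or without DTA-1 replicate 1, and the median log2 fold change was -0.11 and -0.15. Tnfrsf13b, encoding the BAFF and APRIL receptor TACI, had 27.2, 25.8 and 24.3 CPM in isotype control and 23.9, 20.2 and 18.6 CPM with DTA-1. Its log2 fold change was -0.30 (SE 0.12, edgeR adjusted p = 0.657). It was the 1 gene of the 13 tested with every DTA-1 library below every control, against 6.03% of all genes tested, and none had every DTA-1 library above. Tnfrsf10b, a receptor for TRAIL, was at 0.19 (SE 0.13), and Cd40 had at most 25.0 expected counts in any library.

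Among 8 costimulatory receptors outside the TNF family, 6 were tested and none was called with 6 libraries. Icos, the ILC2 costimulatory receptor of the CD28 family, had 156, 173 and 157 CPM in isotype control and 156, 98.9 and 98.3 CPM with DTA-1. DTA-1 replicates 2 and 3 were below every control, and replicate 1 lay within the controls. The log2 fold change was -0.46 (SE 0.15, edgeR adjusted p = 0.626), and without DTA-1 replicate 1 it was -0.71 with an adjusted p of 0.00129, the only gene of the list called in that fit, in which 0.161% of all genes were called lower. Cd28 and Cd2 had at most 2.43 and 3.10 CPM. The median of the list was -0.09 with 6 libraries and -0.24 without DTA-1 replicate 1.

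The genes whose values followed each of the 3 leading costimulatory receptors most closely were found by Pearson's r of log2 CPM over the 6 libraries, among 8722 genes with a mean of at least 10 CPM. The points are the libraries of both treatments, so genes that differ between treatments correlate across them, and no p is given. For Tnfrsf18 these were Mrpl18 (r = 0.9956), Malsu1 (0.9883) and Myd88 (0.9883), the first a mitochondrial ribosomal protein and the last the adaptor of IL-33 and Toll-like receptors. For Tnfrsf4 they were Rnf19b (0.9936), Sept9 (0.9923) and Pum3 (0.9908). Rnf19b, a ubiquitin ligase, had 73.3, 60.5 and 72.4 CPM in isotype control and 80.7, 126 and 120 CPM with DTA-1. Its DTA-1 replicate 1 was also the lowest of its group and above the controls. Rnf19b was picked for following Tnfrsf4 over these same libraries, so that likeness was set by the choice. How high r would be for other genes was not tested. For Tnfrsf9 they were Tmed5 (0.9795), Gpc1 (0.9785) and Wsb2 (0.9785).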

How the data were processed

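RNA-seq was performed on 3 isotype control and 3 DTA-1 libraries of sorted ILC2s. According to the methods and the submitters' processing notes, the authors converted the reads with bcl2fastq 2.17.1.14, aligned them to mm10 (STAR 2.5.3a is named) and quantified genes in Partek. The deposited values are expected counts per gene, not normalized, and 77.8% of them were whole numbers. The parameters, the annotation release and the use of strand are not given in the sources used here.

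Expected counts were rounded and fitted in R 4.3.3 with edgeR 4.0.16 (filterByExpr, TMM, robust quasi-likelihood F test, Benjamini-Hochberg adjustment), with no covariate. A gene was called at an adjusted p under 0.05 and at least 1.5-fold change, the study's limits. Normalized counts are CPM after TMM scaling. SE was computed from the fold change and F. The alternatives used DESeq2 1.42.0, limma 3.58.1 (log2 CPM, prior count 2), other scalings, filters and thresholds, the replicate number as a block, and leaving out each library. Summaries were made with pandas 2.3.3 and numpy 2.4.6 (Python 3.11.15), figures with matplotlib 3.10.9. The fit was tested on simulated data of 13990 genes, scored at an adjusted p under 0.05 with no fold limit. It found 158 of 200 genes changed 2-fold, in the right direction, and 11 unchanged genes. The changed genes left out those with the lowest means, and no simulated library stood apart from its group. The test therefore does not give the power of the criterion in these data.

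Gene lengths, coordinates and overlaps came from GENCODE, and start-site windows from RefSeq (GRCm38.p6). Of 49618 symbols shared with GENCODE 48190 had the same start, and all 10 receptors had the same coordinates. Named genes were the 10 receptors, the known ligand of each, the 3 genes of every other list with the smallest unadjusted p, genes overlapping a receptor, the 2 nearest coding genes on each side of Tnfrsf18 and Tnfrsf4, and the 3 genes most like Tnfrsf18, Tnfrsf4 and Tnfrsf9. The receptors, lists, tests and alternatives were chosen with earlier results of these data known.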

Additional observations from a re-analysis of the deposited data

How the results depend on the processing

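Of the counts of called genes, 0 of all genes and 0 of the 10 receptors with edgeR and all 6 libraries, those of DESeq2's size factors, total counts, limma-trend, the stricter filter and no fold limit were also 0. DESeq2's Wald test called 20 genes and 1 receptor, no filter on low counts called 2 genes, and an unadjusted p called 337 genes and 1 receptor. Leaving out 1 library gave 0 to 111 genes and 0 to 1 receptors, with all of the calls from the fit without DTA-1 replicate 1; the cause was not tested. With the replicate number as a block 1 gene was called and no receptor. Libraries of the same number did not deviate together (correlations of -0.0069, -0.00285 and 0.0152). With few libraries in each group and DTA-1 replicate 1 apart from its own, this cannot exclude a pairing. Of 388 log2 fold changes of 30 named genes under alternatives, 368 kept direction and side of the threshold, 10 were newly called and 10 changed sign, all of the latter on leaving out a library. Those were Tnfrsf18 (-0.07 to 0.03), Tnfrsf14 (-0.29 to 0.52), Ltbr (-0.43 to 0.51), Tnfsf9 (-0.05 to 0.05) and B3galt6 (-0.19 to 0.09). The other 7 receptors kept their sign under every alternative. Depth limits Tnfrsf1a, Tnfrsf14 and Ltbr, which had at most 104 counts in any library.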
